A study of Mus musculus with 27 samples.

Results

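The response of mouse thyroid gland organoids (mTGOs) to 7 Gy of photon irradiation was examined at day 7 of culture. It rests on 6 of the 27 RNA-seq libraries of the series, 3 at 7 Gy and 3 at 0 Gy, which were chosen by dose and day alone. mTGOs are small spheres that grow in a basement membrane gel from dissociated thyroid cells. All organoids came from thyroid glands of C57BL/6 mice aged 8-12 weeks per the labels, and both groups were embedded in Matrigel in the same serum-free medium with EGF, FGF2, a ROCK inhibitor and B27. The 7 Gy organoids received a photon dose at day 5 and were collected 2 days later, at day 7, while the 0 Gy organoids were collected at day 7 without irradiation. Each dose held the cultures mTG11, mTG12 and mTG14, and values of 3 libraries are given in that order throughout. The labels number the mice 1 to 3 and the series text speaks of 4 mice, so that a culture name could not be tied to a numbered mouse. The p-values rest on the spread left among the 12 libraries of day 7 after differences between cultures are removed. Where cultures are not separate mice, the p-values do not cover the spread between mice.

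The 6 libraries held between 3758142 and 3989606 counts, so that 3 counts, taken as the limit of what a count of 0 allows, correspond to between 0.752 and 0.798 CPM, the unit in which each count is divided by its library's total and scaled up to the same depth for all libraries. Ribosomal RNA took between 9.16% and 15.3% of the counts and mRNA of the mitochondrial genome between 1.29% and 1.72%. The labelled tissue was checked against the genes that define it. Transcripts of thyroid hormone production were close to absent in both groups, with 4 counts at 0 Gy and 1 at 7 Gy for Tshr, the receptor of thyrotropin, and 0 and 2 for Slc5a5, the iodide transporter, summed over 3 libraries. Thyroid transcription factors were present for Nkx2-1, with 11.7, 8.75 and 9.26 CPM at 0 Gy and 13.3, 9.51 and 12.2 CPM at 7 Gy, and for Foxe1, with 31.8, 20.4 and 34.7 CPM at 0 Gy and 20.3, 26.7 and 30.1 CPM at 7 Gy, and both ranges overlapped. The basal keratin Krt5 stood at 4465, 4839 and 4570.0 CPM at 0 Gy and 4672, 5597 and 5147 CPM at 7 Gy, and the keratin Krt13 of wet stratified epithelia at 5286, 3663 and 5701 CPM at 0 Gy and 3331, 5289 and 5404 CPM at 7 Gy, neither of which differed between the groups by the test. The genes that define hormone-producing follicular cells were thus at or near 0, and keratins of a stratified epithelium were present in all 6 libraries.

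Ionizing radiation breaks DNA, and the breaks activate the transcription factor p53, which switches on genes that hold the cell cycle, repair DNA or start cell death. Damaged nuclear or mitochondrial DNA and certain RNAs in the cytosol can also be sensed as if they were viral, through cGAS and STING or through RIG-I and MDA5, and lead to interferons and the genes they induce. Epithelia exposed to radiation are further known to lose dividing cells and to change their course of differentiation.

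At 7 Gy, 1033 genes were higher and 1160 lower than at 0 Gy, which together were 2193 of 19346 genes tested, or 11.3% (edgeR quasi-likelihood test with culture as a block, Benjamini-Hochberg adjusted p under 0.05). The genes that rose were 5.34% of those tested and the genes that fell 6.00%, and every list count below is to be read beside these shares. Among the called genes, 634 moved at least 2-fold, 332 up and 302 down, and in 1957 (89.2%) the 3 libraries of a dose did not overlap those of the other dose, as they did in 5018 (25.9%) of all genes tested. The median log2 fold change over all genes was 0.014. Fold changes are given on the log2 scale ± standard error throughout, and levels in CPM of the library total. Without the culture block 1345 genes were called, 620 higher and 725 lower, and without culture mTG11 910 were, 441 higher and 469 lower. A bulk library does not tell whether a gene fell because fewer cells expressed it or because each cell held less of its RNA, and this holds for every result below.

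**Figure D1:**
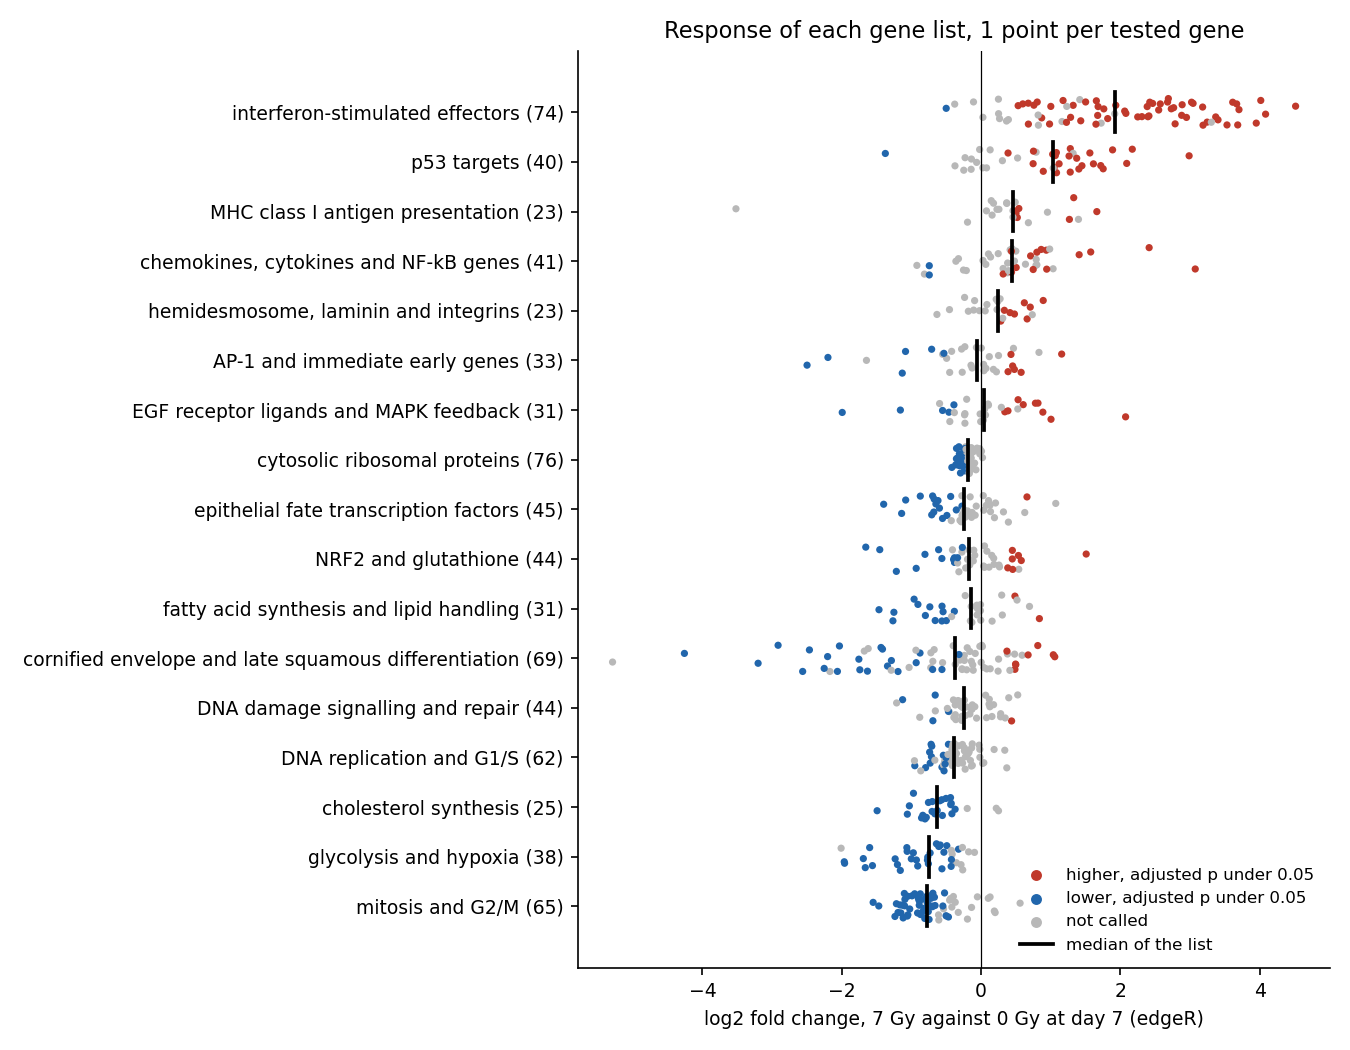
Members of 17 gene lists by their log2 fold change at 7 Gy against 0 Gy at day 7 (x axis), with 1 point per gene and coloured points for genes at an adjusted p under 0.05. Interferon-stimulated genes and p53 targets lie mostly to the right of 0, with medians of 1.93 and 1.04, and mitosis, glycolysis and hypoxia, and cholesterol synthesis mostly to the left, with medians of -0.77, -0.74 and -0.63.

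The p53 targets rose as a group 2 days after exposure. Of 40 listed targets, all measured, 24 were higher and 1 was lower, against 5.34% and 6.00% of all genes, and their median log2 fold change was 1.04. Cdkn1a, which encodes the cell cycle inhibitor p21 (chr17:29309936-29319701, plus strand, GRCm39), stood at 223, 247 and 259 CPM at 0 Gy and 598, 681 and 513 CPM at 7 Gy. Every 7 Gy library lay above every 0 Gy library, and the level was 2.43-fold higher (log2 fold change 1.28 ± 0.10, adjusted p = 3.59e-07). Mdm2, the ubiquitin ligase that removes p53 (chr10:117524780-117546730, minus strand), stood at 40.7, 40.7 and 28.4 CPM at 0 Gy and 123, 132 and 108 CPM at 7 Gy (log2 fold change 1.72 ± 0.13, adjusted p = 3.59e-07). Ccng1, cyclin G1 (chr11:40639377-40646148, minus strand), stood at 88.1, 125 and 100.2 CPM at 0 Gy and 376, 414 and 277 CPM at 7 Gy (log2 fold change 1.75 ± 0.11, adjusted p = 5.01e-08). Neither gene overlapped between the doses, and the culture mTG12 was the highest of the 7 Gy libraries for both. Trp53inp1, a nuclear partner of p53, stood at 42.1, 37.4 and 35.2 CPM at 0 Gy and 127, 163 and 140.2 CPM at 7 Gy, a 3.71-fold rise. The largest fold of the list was that of Eda2r, a receptor of the tumour necrosis factor family (chrX:96320270-96420847, minus strand), with 3.39, 2.38 and 2.06 CPM at 0 Gy and 21.6, 23.9 and 17.8 CPM at 7 Gy. That is 7.94-fold (log2 fold change 2.99 ± 0.23, adjusted p = 4.32e-07), from levels of a few CPM in all 3 cultures at 0 Gy.

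The p53 targets that act in cell death rose with those that act in arrest. Fas, the death receptor, stood at 0.521, 2.38 and 2.32 CPM at 0 Gy and 7.52, 7.45 and 9.05 CPM at 7 Gy, and Tnfrsf10b, the mouse receptor of TRAIL, at 10.8, 10.1 and 7.72 CPM at 0 Gy and 25.8, 27.1 and 25.8 CPM at 7 Gy. Both were higher in each of the 3 cultures, by 2.17 ± 0.36 and 1.45 ± 0.18 on the log2 scale (adjusted p = 0.000769 and 5.54e-05). The genes for the BH3 proteins PUMA and NOXA rose as well. Bbc3 (PUMA) stood at 6.25, 4.51 and 6.43 CPM at 0 Gy and 17, 14.4 and 14.6 CPM at 7 Gy, and Pmaip1 (NOXA) at 47.7, 52.2 and 52.8 CPM at 0 Gy and 102, 127 and 90.2 CPM at 7 Gy. Bax, the effector of mitochondrial outer membrane permeabilization, stood at 39.9, 39.2 and 34.5 CPM at 0 Gy and 86, 85.6 and 62.8 CPM at 7 Gy, with no overlap between doses and a log2 fold change of 1.03 ± 0.13 (adjusted p = 5.7e-05). Of the 37 measured genes listed as cell death regulators, 6 (16.2%) were higher and 2 (5.41%) lower, against 5.34% and 6.00% of all genes. The 4 with a log2 fold change of 1 or more, Fas, Bbc3, Pmaip1 and Bax, are p53 targets. Bik was among the 2 that were lower. It fell 2.44-fold, the lowest log2 fold change of that list (-1.29), and its call held under all 16 alternatives.

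Genes of repair and damage tolerance were among the targets that rose. Polk, a translesion DNA polymerase, stood at 14.1, 14.1 and 10.8 CPM at 0 Gy and 30.3, 29.1 and 35.7 CPM at 7 Gy, and Ercc5, the XPG nuclease of nucleotide excision repair, at 34.1, 50.0 and 42.2 CPM at 0 Gy and 82.5, 99.2 and 86.5 CPM at 7 Gy. Neither overlapped, with log2 fold changes of 1.28 ± 0.15 and 1.08 ± 0.11. Zmat3, an RNA-binding p53 target, rose by 1.38 ± 0.12, Aen, a nuclease induced in apoptosis, by 1.56 ± 0.12, Plk2, a polo-like kinase, by 1.26 ± 0.11, and Btg2, an antiproliferative gene, by 1.08 ± 0.13 on the log2 scale. Not all known targets moved. Sesn1 stood at 16.7, 15.1 and 10.8 CPM at 0 Gy and 13, 11.3 and 14.4 CPM at 7 Gy (adjusted p = 0.702), and Ddb2, whose mouse gene is a poor p53 target, and Xpc had log2 fold changes of -0.37 ± 0.30 and -0.06 ± 0.14 (adjusted p = 0.494 and 0.844). Trp53 itself had a log2 fold change of 0.44 ± 0.12 (adjusted p = 0.0261, and 0.161 without the culture block). The count of 24 higher targets ranged from 23 to 25 when any library or culture was left out.

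Genes of mitosis fell. Of 65 listed and measured genes of G2 and mitosis, 46 were lower and 0 higher, against 6.00% and 5.34% of all genes, with a median log2 fold change of -0.77. The promoters of many such genes share a cell cycle homology region (CHR), whose core TTTGAA is bound by the DREAM and MuvB complexes. Below is the stretch around this core for 3 of the genes described next, from RefSeq promoter windows that run from 250 bases before to 50 after each start (GRCm38.p6), with 1 copy of the core in capitals. The Mki67 stretch holds a second copy in lower case. The windows of Cdk1 and Top2a also hold a copy nearer the start, which is not shown. It lies at base -15 in Cdk1 and, on the other strand, at -23 in Top2a. The copies shown lie at -71 and -179.

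Mki67 (chr7:135716465-135716520, minus strand): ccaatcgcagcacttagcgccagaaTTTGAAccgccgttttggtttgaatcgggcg
Cdk1 (chr10:69352953-69353008, minus strand): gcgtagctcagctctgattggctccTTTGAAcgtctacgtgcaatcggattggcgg
Top2a (chr11:99024338-99024393, minus strand): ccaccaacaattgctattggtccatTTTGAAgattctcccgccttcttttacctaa

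TTTGAA, searched on both strands, stood in 72.5% of the 40 windows of the called genes (38 of 46 genes matched), in 72.2% of the 18 windows of the listed genes that were not called and in 13.0% of the 15747 windows of all genes tested. The CCAAT box, searched as CCAAT on both strands, stood in 75.0% of the windows of the called genes and in 37.3% of all windows. A match describes these letters and not a bound site.

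Mki67, the marker of cycling cells (chr7:135291513-135318299, minus strand), stood at 130.1, 114 and 117 CPM at 0 Gy and 39.1, 45.2 and 47.2 CPM at 7 Gy. The highest 7 Gy library lay below the lowest 0 Gy library, and the level was 2.76-fold lower (log2 fold change -1.47 ± 0.17, adjusted p = 1.92e-05). Top2a, the topoisomerase that untangles chromosomes, stood at 215, 165 and 172 CPM at 0 Gy and 102, 94.4 and 89.3 CPM at 7 Gy (log2 fold change -0.95 ± 0.12, adjusted p = 8.98e-05). Nusap1, a spindle protein, stood at 57.6, 45.9 and 48.5 CPM at 0 Gy and 26.6, 20.8 and 19.4 CPM at 7 Gy, and Cenpf, a kinetochore protein, at 86.7, 65 and 49 CPM at 0 Gy and 25.3, 32 and 32.4 CPM at 7 Gy. No library of either dose crossed into the other, in any of the 4 genes. Aurkb, Birc5 and Cdca8, subunits of the chromosomal passenger complex, had log2 fold changes of -1.16 ± 0.20, -0.74 ± 0.13 and -0.99 ± 0.16. The activator Cdc20 of the anaphase-promoting complex had a log2 fold change of -0.78 ± 0.12, the kinesin Kif11 -1.09 ± 0.20, the centromeric histone Cenpa -1.02 ± 0.15 and the condensin subunit Smc4 -0.81 ± 0.10. Cdk1, the mitotic kinase, stood at 41.2, 34.2 and 35.2 CPM at 0 Gy and 20.2, 25.2 and 20.6 CPM at 7 Gy (log2 fold change -0.76 ± 0.15, adjusted p = 0.0037). Its partner Ccnb1 stood at 32.8, 21.5 and 24.8 CPM at 0 Gy and 19.1, 22.4 and 15 CPM at 7 Gy, with an overlap in culture mTG12, and was not called (adjusted p = 0.0706). Of the 46 genes, 45 had no overlap between doses, as had 89.2% of all called genes and 25.9% of all genes tested. Without culture mTG11 the count was 19, and without culture mTG14 it was 28.

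Genes of DNA replication and the G1/S step were lower in smaller number. Of 62 measured, 15 were lower and 0 higher, with a median log2 fold change of -0.39. The count was 8 without the culture block, 5 by DESeq2 and 1 without culture mTG11. Gmnn, the inhibitor of origin licensing, was the member called under every alternative and stood at 42.5, 36.3 and 33.7 CPM at 0 Gy and 23.1, 23.4 and 21.3 CPM at 7 Gy (log2 fold change -0.74 ± 0.13, adjusted p = 0.00112). The E2F target Rrm2, a subunit of ribonucleotide reductase, stood at 30.0, 29.6 and 27.7 CPM at 0 Gy and 33.5, 36.6 and 21.4 CPM at 7 Gy and Pcna, the polymerase clamp, at 46, 47.2 and 48.2 CPM at 0 Gy and 44.7, 38.9 and 39.4 CPM at 7 Gy. Neither was called (adjusted p = 0.923 and 0.325), and Rrm2 overlapped between the doses. In the list of DNA damage signalling and repair, 1 of 44 genes (2.27%) was higher, Trp53, and 4 (9.09%) were lower. These shares lie near the 5.34% and 6.00% of all genes, and the count of 4 was 1 without culture mTG11. Brca2, of repair by homologous recombination, fell from 13, 10.3 and 11.8 CPM to 7.27, 4.11 and 4.79 CPM (log2 fold change -1.12 ± 0.20, adjusted p = 0.00115).

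The regulators of the G1 phase moved in both directions. Of 18 cell cycle inhibitors and D cyclins, 5 were higher and 2 lower. Ccnd1, cyclin D1, stood at 668, 744 and 663 CPM at 0 Gy and 1220.0, 1181 and 988 CPM at 7 Gy, and Ccnd2, cyclin D2, at 1819, 1397 and 1371 CPM at 0 Gy and 2797, 2697 and 2016 CPM at 7 Gy. Both were higher without overlap, each by 0.70 ± 0.08 on the log2 scale (adjusted p = 2.18e-05 and 2.64e-05). Cdkn2b, the inhibitor p15, stood at 73.8, 71.6 and 69.7 CPM at 0 Gy and 103, 98.2 and 97.1 CPM at 7 Gy (log2 fold change 0.47 ± 0.09, adjusted p = 0.00207), while Cdkn1b, the inhibitor p27, was lower, with 55.8, 53.3 and 60.5 CPM at 0 Gy and 39.1, 38 and 35.7 CPM at 7 Gy (log2 fold change -0.59 ± 0.11, adjusted p = 0.00185). Each of these calls was lost in 1 alternative. Cdkn2a, the p16 and p19ARF gene often used as a marker of senescence, stood at 28.1, 48.5 and 40.9 CPM at 0 Gy and 43.1, 58.1 and 35.7 CPM at 7 Gy, with overlapping doses and no call (adjusted p = 0.435).

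Interferon-stimulated genes (ISGs) rose more than any other list by its median. Of 74 measured effectors, 57 were higher and 1 lower, against 5.34% and 6.00% of all genes, and the median log2 fold change was 1.93. Type I and III interferons act through a complex that holds STAT2 and IRF9 and binds the interferon-stimulated response element (ISRE), a pair of GAAA runs. The stretch around this element is shown for 5 ISGs whose levels follow, 5′ to 3′ along the gene, with the core GAAANNGAAA or its reverse complement in capitals (RefSeq, GRCm38.p6).

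Rsad2 (chr12:26456538-26456597, minus strand): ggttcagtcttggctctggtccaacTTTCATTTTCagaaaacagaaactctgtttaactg
Ifit3 (chr19:34583348-34583407, plus strand): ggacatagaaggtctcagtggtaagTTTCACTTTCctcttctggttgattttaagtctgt
Ifit1 (chr19:34640760-34640819, plus strand): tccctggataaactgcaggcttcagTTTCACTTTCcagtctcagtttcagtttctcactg
Isg15 (chr4:156200856-156200915, minus strand): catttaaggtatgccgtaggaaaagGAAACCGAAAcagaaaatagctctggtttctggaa
Bst2 (chr8:71537562-71537621, minus strand): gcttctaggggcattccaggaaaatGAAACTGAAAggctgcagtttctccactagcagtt

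GAAANNGAAA, searched on both strands, stood in 56.4% of the 55 promoter windows of the called ISGs (45 of 57 genes matched), in 56.2% of the 16 windows of ISGs that were not called and in 2.98% of all 15747 windows. Isg15 and Bst2 hold further copies of the core that overlap the capitals, and the Ifit1 stretch holds a second copy in lower case. The Ifit3 window holds a further copy nearer the start, beyond the stretch shown.

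Parts of the complex that carries the interferon signal were themselves higher. Stat2 stood at 10.4, 9.28 and 4.89 CPM at 0 Gy and 60.7, 14.7 and 37.8 CPM at 7 Gy. All 7 Gy libraries lay above all 0 Gy libraries, with culture mTG11 highest and mTG12 lowest at 7 Gy, and the log2 fold change was 2.14 ± 0.30 (adjusted p = 0.00018). Irf9, the DNA-binding partner, stood at 26.2, 11.1 and 11.6 CPM at 0 Gy and 76.5, 40.6 and 63.2 CPM at 7 Gy, and Irf7, a factor that drives interferon genes, at 16.4, 7.42 and 6.43 CPM at 0 Gy and 101, 22.6 and 59.1 CPM at 7 Gy (log2 fold change 2.56 ± 0.20, adjusted p = 6.76e-07). Cytosolic sensors rose as well. Dhx58, the RIG-I-like protein LGP2, stood at 2.08, 0.795 and 0.772 CPM at 0 Gy and 23.9, 6.94 and 16.2 CPM at 7 Gy, Ifih1, the RNA sensor MDA5, at 17, 10.1 and 10.0 CPM at 0 Gy and 51.6, 18.8 and 41.5 CPM at 7 Gy, and Ddx58, the RNA sensor RIG-I, at 18.2, 17.5 and 15.9 CPM at 0 Gy and 66.4, 21.8 and 48.4 CPM at 7 Gy. Zbp1, a sensor of Z-form nucleic acids, rose by 2.98 ± 0.37 and Trex1, the nuclease that clears cytosolic DNA, by 1.34 ± 0.20 on the log2 scale. Ifi204, of a family of DNA-binding interferon-inducible proteins, and Ikbke, a kinase of the interferon pathway, rose by 0.87 ± 0.17 and 0.95 ± 0.19. The transcripts of cGAS and STING were not higher. Cgas stood at 11.5, 10.2 and 13 CPM at 0 Gy and 8.15, 11.1 and 10.7 CPM at 7 Gy, with overlapping doses and no call (adjusted p = 0.628), and Sting1 was lower, with 43, 22.8 and 27 CPM at 0 Gy and 16.8, 11.3 and 15.4 CPM at 7 Gy (log2 fold change -1.08 ± 0.17, adjusted p = 0.000474, and 0.0522 without the culture block). The factor Irf3 and the adaptor Mavs were not called (log2 fold changes -0.01 ± 0.12 and 0.40 ± 0.16), nor were the receptor chains Ifnar1 and Ifnar2 (-0.05 ± 0.13 and -0.20 ± 0.13). Socs3, a feedback inhibitor of cytokine receptors, fell from 5.73, 11.7 and 8.49 CPM to 2.51, 3.08 and 2.66 CPM (log2 fold change -1.64 ± 0.32, adjusted p = 0.00283). Over the list of ligands, receptors, sensors and factors, 13 of 37 measured genes were higher and 3 lower.

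Interferon ligands were at the limit of detection in both groups. Ifnb1, Ifna4, Ifnk, Ifne and Ifng had 0 counts in all 6 libraries, which allows up to 0.261 CPM at 0 Gy and 0.258 CPM at 7 Gy over the 3 libraries of a dose. Ifnl2 had 0.5 estimated counts at 0 Gy and 0 at 7 Gy, and Ifnl3 0.5 and 3. Their presence or change was not detectable at this depth.

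The ISGs with the best-known antiviral products showed the same order of libraries. Isg15, a ubiquitin-like protein (chr4:156283883-156285303, minus strand), stood at 18.6, 8.75 and 10.7 CPM at 0 Gy and 293, 46.2 and 109.9 CPM at 7 Gy. The 7 Gy libraries spread widely, with mTG11 highest and mTG12 lowest, and yet the lowest lay above every 0 Gy library (log2 fold change 3.40 ± 0.31, adjusted p = 2.55e-06). Rsad2, viperin (chr12:26492745-26506451, minus strand), stood at 2.6, 0.883 and 0.772 CPM at 0 Gy and 52.2, 8.48 and 15.2 CPM at 7 Gy, and Ifit1, an RNA cap sensor (chr19:34618271-34632174, plus strand), at 21.7, 10.7 and 11 CPM at 0 Gy and 207, 36.8 and 101 CPM at 7 Gy. Their fold changes were 17.0 and 7.41 (4.09 ± 0.37 and 2.89 ± 0.27 on the log2 scale). Bst2, tetherin, stood at 11.5, 7.95 and 3.09 CPM at 0 Gy and 121, 24.8 and 47.2 CPM at 7 Gy, Usp18, which removes ISG15 and damps the receptor, at 10.4, 3.98 and 6.69 CPM at 0 Gy and 82.2, 18.5 and 39.9 CPM at 7 Gy, and Oasl2, a member of the oligoadenylate synthetase family, at 11.7, 5.04 and 3.09 CPM at 0 Gy and 117, 18.5 and 51.2 CPM at 7 Gy. None of them overlapped between the doses. Mx1, a dynamin-like antiviral GTPase, stood at 7.29, 3.18 and 5.4 CPM at 0 Gy and 31.3, 7.71 and 18.6 CPM at 7 Gy, where mTG12 at 7 Gy exceeded the highest 0 Gy library by less than 1 CPM (log2 fold change 1.82 ± 0.24, adjusted p = 8.98e-05). Ifi44 rose 12.9-fold, Xaf1, a proapoptotic ISG, 7.37-fold, and Adar, an RNA editing enzyme, 2.26-fold. Ifit3 and Ifit3b, Apol9a and Apol9b, and the Oas1 genes are near-identical copies whose reads the counting may have split, so that single values of Ifit3 (3.25 ± 0.29) and Apol9b (3.53 ± 0.40) are uncertain.

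Culture mTG11 had the highest 7 Gy library for 54 of the 57 called ISGs and mTG12 the lowest for 55. At 0 Gy mTG11 was the highest library for 40 of them. The median log2 ratio of the list by culture, on the scale of log2(CPM + 1), was 1.88 in mTG11, 0.79 in mTG12 and 1.62 in mTG14, while the median over all genes was -0.022, 0.039 and 0.023. In 49 of the 57 (86.0%) the doses did not overlap, against 89.2% of all called genes. The count of 57 was 42 without the culture block and ranged from 38 to 61 when a library or culture was left out. The defining markers of immune cells were at or near 0. The leukocyte marker Ptprc had 1 count at 0 Gy and 1 at 7 Gy over 3 libraries, the macrophage marker Adgre1 2 and 4, and Cd3e and Cd52 had 0. The summed level of the 10 measured genes of 18 immune markers was between 22.4 and 38.0 CPM at 0 Gy and between 31.7 and 43.4 CPM at 7 Gy, and 0 of the 10 were called. Their log2 fold changes had a median of 0.97, with 8 of 10 above 0, and came from levels of a few CPM for most. Lyz2, a lysozyme of myeloid cells, stood at 9.25, 6.76 and 3.73 CPM at 0 Gy and 11, 16.2 and 7.72 CPM at 7 Gy (adjusted p = 0.0576) and Laptm5 at 3.39, 0.795 and 1.29 CPM at 0 Gy and 4.76, 2.57 and 4.52 CPM at 7 Gy (adjusted p = 0.0593). The part of immune cell RNA in the rise of the ISGs was not tested.

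**Figure D2:**
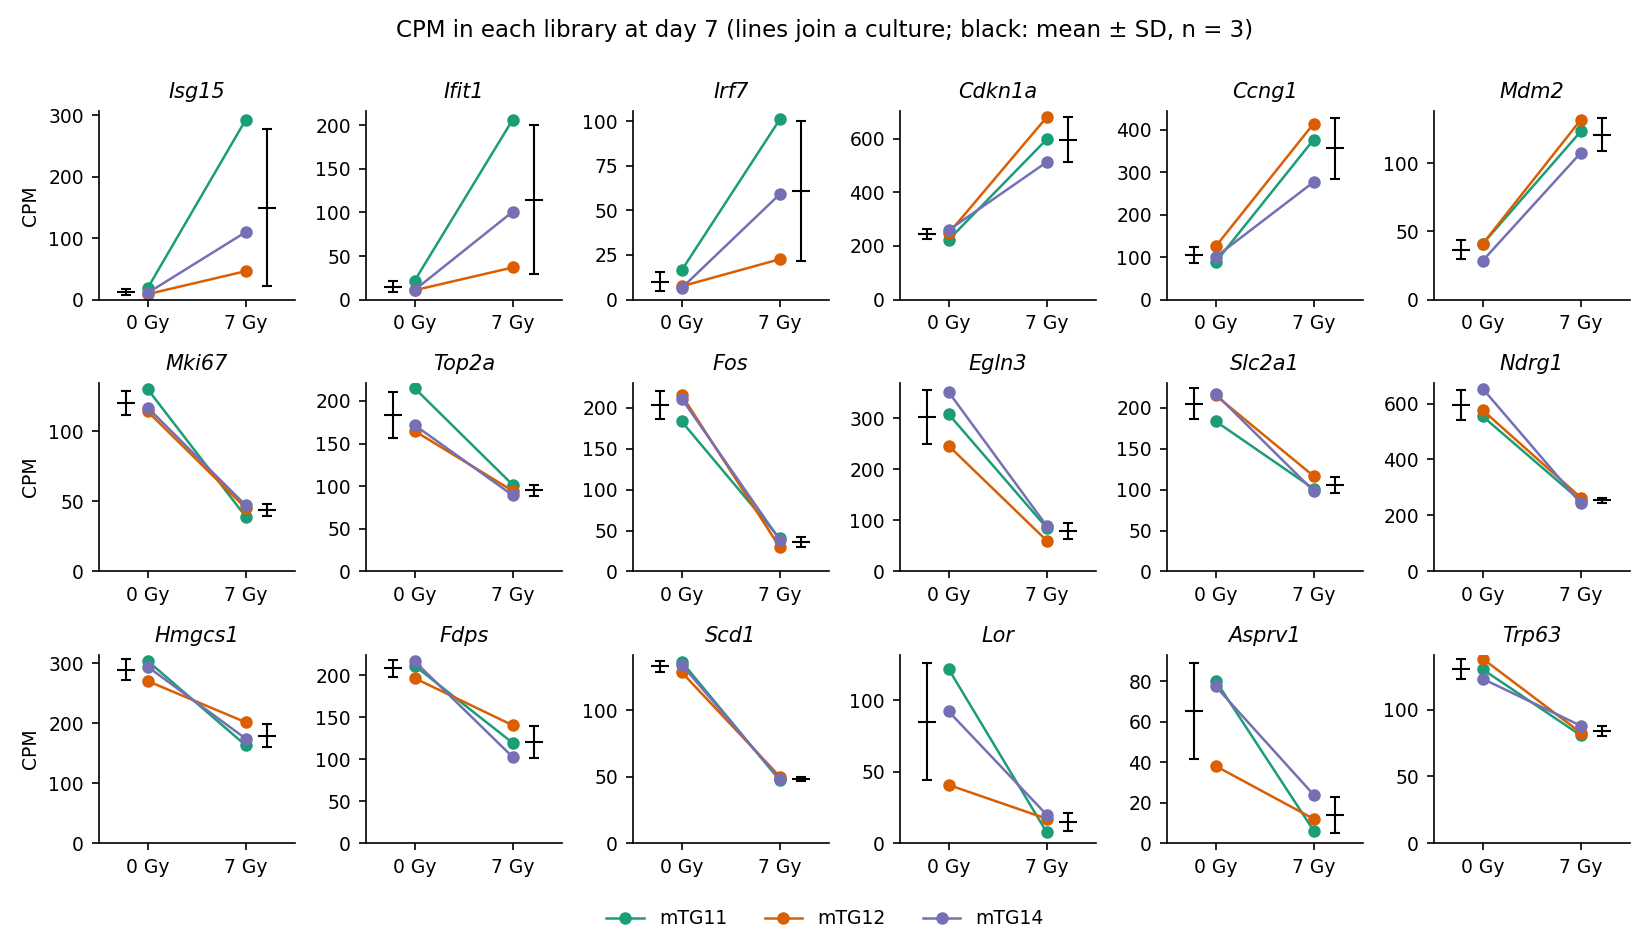
CPM of 18 genes (y axes, linear from 0) in the 3 libraries at 0 Gy and the 3 at 7 Gy of day 7, with points for the cultures mTG11, mTG12 and mTG14 and the mean ± SD of each dose (n = 3). Isg15, Ifit1 and Irf7 spread widely at 7 Gy, with culture mTG11 at the top, while Mki67, Fos and Scd1 at 7 Gy sit close together below all 0 Gy libraries.

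Antigen presentation and chemokines were higher in part. Of 23 measured genes of the MHC class I pathway 7 were higher, and 2 without the culture block, Tap1 and B2m, or without culture mTG11. Tap1, the peptide transporter, stood at 23.7, 15.4 and 18.3 CPM at 0 Gy and 81.7, 49.1 and 52.7 CPM at 7 Gy, and B2m, the invariant light chain, at 114, 84.9 and 104 CPM at 0 Gy and 360.4, 164 and 235 CPM at 7 Gy. Both doses were apart in every culture, with log2 fold changes of 1.66 ± 0.12 and 1.27 ± 0.12 (adjusted p = 3.59e-07 and 4.68e-06). Of 41 measured chemokine, cytokine and NF-κB genes, 14 were higher and 2 lower, and 7 were higher without culture mTG11. Ccl5, a T cell attractant, stood at 0.782, 0.53 and 1.29 CPM at 0 Gy and 14.3, 3.6 and 5.59 CPM at 7 Gy, and Cxcl10, the interferon-induced ligand of CXCR3, at 3.39, 1.85 and 2.06 CPM at 0 Gy and 25.1, 6.42 and 9.31 CPM at 7 Gy. The neutrophil attractants Cxcl1 and Cxcl2 stood at 17, 17.2 and 20.3 CPM at 0 Gy and 50.6, 47.1 and 47.9 CPM at 7 Gy and at 9.12, 11.1 and 7.72 CPM at 0 Gy and 33.6, 30.8 and 20.0 CPM at 7 Gy. For Ccl5 and Cxcl10 culture mTG11 was highest at 7 Gy by far, as for the ISGs, whereas the 3 cultures of Cxcl1 lay within 4 CPM of each other at 7 Gy (log2 fold change 1.41 ± 0.15, adjusted p = 9.66e-06). Tnfaip3, the NF-κB inhibitor A20, rose by 0.94 ± 0.15 on the log2 scale, and Tnfaip2 fell (log2 fold change -0.74 ± 0.12). Il6 and Il1b, cytokines of the senescence-associated secretome, stood below 2 CPM in all 6 libraries and were not called.

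The genes of glycolysis and of the hypoxia response fell together. Of 38 genes, all measured, 29 were lower and 0 higher, against 6.00% and 5.34% of all genes, with a median log2 fold change of -0.74 and with all 38 fold changes below 0. Hypoxia-inducible factors bind ACGTG, the core of the hypoxia response element (HRE), in the promoters of glycolytic and oxygen-sensing genes. The stretch around this core is shown for 4 of the genes that fell (RefSeq, GRCm38.p6, core in capitals).

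Bnip3 (chr7:138909584-138909638, minus strand): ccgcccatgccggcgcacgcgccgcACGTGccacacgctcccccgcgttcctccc
Egln1 (chr8:124949293-124949347, minus strand): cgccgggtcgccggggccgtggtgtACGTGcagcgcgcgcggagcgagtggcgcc
Pgk1 (chrX:106186925-106186979, plus strand): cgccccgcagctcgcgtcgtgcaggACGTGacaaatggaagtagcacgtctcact
Ldha (chr7:46845635-46845689, plus strand): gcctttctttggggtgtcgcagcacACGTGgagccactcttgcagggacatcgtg

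ACGTG, searched on both strands, stood in 63.6% of the 33 windows of the called genes (26 of 29 genes matched), in 35.3% of the 17 windows of the listed genes that were not called and in 24.1% of all windows. In Bnip3 and Ldha the letters before the core make it read CACGTG, which matches on both strands. The Pgk1 stretch holds a second core on the other strand, in lower case. The Ldha window holds further copies nearer the start, beyond the stretch shown.

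Egln3, an oxygen sensor that marks HIF for removal (chr12:54225767-54250673, minus strand), stood at 308, 246 and 351 CPM at 0 Gy and 85.5, 60.4 and 89.1 CPM at 7 Gy. That is a 3.89-fold fall with wide gaps between the doses (log2 fold change -1.96 ± 0.12, adjusted p = 3.27e-08). Its relative Egln1 stood at 126, 147 and 152 CPM at 0 Gy and 63.2, 60.9 and 66.7 CPM at 7 Gy (log2 fold change -1.16 ± 0.1, adjusted p = 1.77e-06). Car9, the carbonic anhydrase used as a hypoxia marker, stood at 13.6, 15.6 and 12.1 CPM at 0 Gy and 3.76, 4.62 and 2.13 CPM at 7 Gy, and Bnip3, a mitophagy receptor, at 93, 124 and 113 CPM at 0 Gy and 36.3, 31.2 and 45.3 CPM at 7 Gy. Ndrg1, a stress-response gene, stood at 554, 576 and 653 CPM at 0 Gy and 253, 264 and 244 CPM at 7 Gy. In each of these all 7 Gy libraries lay below all 0 Gy libraries, and the log2 fold changes were -1.96 ± 0.28, -1.56 ± 0.14 and -1.23 ± 0.10. Epas1, which encodes HIF-2α, fell from 173, 98.9 and 109.6 CPM to 66.2, 46.8 and 51.4 CPM (log2 fold change -1.20 ± 0.10, adjusted p = 8.5e-07), while Hif1a stood at 149, 218 and 118 CPM at 0 Gy and 108, 140.0 and 129 CPM at 7 Gy, overlapped and was not called (adjusted p = 0.0595). Vegfa, the vascular growth factor, stood at 79.5, 85.9 and 84.5 CPM at 0 Gy and 48.6, 45.2 and 54.3 CPM at 7 Gy (log2 fold change -0.77 ± 0.16, adjusted p = 0.0044).

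The glucose transporter and enzymes of glycolysis were lower as well. Slc2a1, the transporter GLUT1, stood at 183, 215 and 217 CPM at 0 Gy and 101, 116 and 98.2 CPM at 7 Gy (log2 fold change -0.97 ± 0.09, adjusted p = 2.68e-06). Pfkp, the platelet-type phosphofructokinase, stood at 85.5, 104 and 93.9 CPM at 0 Gy and 46.6, 49.3 and 46 CPM at 7 Gy. Pgk1, phosphoglycerate kinase, had a log2 fold change of -0.76 ± 0.08, Aldoa, aldolase A, -0.58 ± 0.07, and Aldoc, aldolase C, -1.60 ± 0.14. Ldha, lactate dehydrogenase A, stood at 1556, 1464 and 1543 CPM at 0 Gy and 1036, 1116 and 967 CPM at 7 Gy, and Gapdh, often used as a reference gene, at 324, 333 and 335 CPM at 0 Gy and 219, 259.8 and 214 CPM at 7 Gy (log2 fold change -0.53 ± 0.09, adjusted p = 0.000537). All 29 called genes were apart between the doses, as were 89.2% of all called genes and 25.9% of all genes tested. The count of 29 ranged from 27 to 29 when a library or culture was left out. By culture the median log2 ratio was -0.66, -0.68 and -0.74, so that the cultures differed less than for the ISGs. Pdk1, which keeps pyruvate out of mitochondria, fell by 0.91 on the log2 scale.

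Cholesterol synthesis fell from its start to its end. Of 25 listed genes 22 were lower and 0 higher, with a median log2 fold change of -0.63. Hmgcs1, which makes HMG-CoA, stood at 304, 270.1 and 294 CPM at 0 Gy and 163, 201 and 174 CPM at 7 Gy, Fdps, which makes farnesyl diphosphate, at 211, 196 and 216 CPM at 0 Gy and 119, 140.4 and 103 CPM at 7 Gy, and Cyp51, lanosterol demethylase, at 299, 258 and 249 CPM at 0 Gy and 150.1, 172 and 148 CPM at 7 Gy. No library crossed between the doses, and the log2 fold changes were -0.70 ± 0.10, -0.80 ± 0.10 and -0.79 ± 0.10 (adjusted p = 0.000176, 6.49e-05 and 0.000102). Among the enzymes in between, the log2 fold change was -1.06 ± 0.16 for Mvd, -0.97 ± 0.12 for Pmvk, -0.66 ± 0.13 for Idi1, -0.56 ± 0.10 for Sqle and -0.70 ± 0.11 for Lss. Srebf2, the factor that controls the pathway, stood at 153, 127 and 139.7 CPM at 0 Gy and 106, 113 and 95.5 CPM at 7 Gy (log2 fold change -0.43 ± 0.10, adjusted p = 0.0114). This call was lost in 6 alternatives. The count of 22 was 14 without the 0 Gy library of mTG11, 11 without culture mTG11 and 13 without culture mTG14.

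In fatty acid synthesis and lipid handling 13 of 31 measured genes were lower and 2 higher, and 8 were lower without culture mTG11 or without mTG14. Scd1, a stearoyl-CoA desaturase, had the lowest log2 fold change of the list. It stood at 136, 128 and 134 CPM at 0 Gy and 47.4, 50.2 and 48.2 CPM at 7 Gy, a 2.76-fold fall (log2 fold change -1.46 ± 0.10, adjusted p = 1.07e-07), and its relative Scd2 at 1192, 987 and 1096 CPM at 0 Gy and 559.9, 629.9 and 511 CPM at 7 Gy. Elovl6, an elongase, and Fads1, a front-end desaturase, fell (log2 fold changes -0.73 ± 0.09 and -0.80 ± 0.12), and Fabp5, the epidermal fatty acid binding protein, fell from 721, 923 and 752 CPM to 199, 489 and 369 CPM (log2 fold change -1.26 ± 0.16, adjusted p = 8e-05). Fasn, fatty acid synthase, and its factor Srebf1 overlapped between doses and were not called (log2 fold changes -0.23 ± 0.16 and -0.05 ± 0.13). Plin2, which coats lipid droplets, was higher, with 41.8, 41.6 and 42.6 CPM at 0 Gy and 87.6, 72.3 and 67.5 CPM at 7 Gy (log2 fold change 0.84 ± 0.13, adjusted p = 0.000565), and so was Fads3 (log2 fold change 0.49 ± 0.15, adjusted p = 0.0465), a call lost in 11 alternatives.

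Of 35 measured ATF4 stress and amino acid genes 10 were lower and 2 higher, and 5 were lower without culture mTG11. Psat1, of serine synthesis, stood at 138, 104 and 131 CPM at 0 Gy and 63.4, 73.5 and 50.6 CPM at 7 Gy, and Asns, asparagine synthetase, at 61, 56.5 and 57.6 CPM at 0 Gy and 40.4, 42.4 and 38.3 CPM at 7 Gy. Both lay lower in every culture, with a log2 fold change of -0.54 ± 0.10 for Asns, and the regulators Atf4 and Ddit3 were not called (log2 fold changes -0.09 ± 0.09 and 0.19 ± 0.24). Ddit4, an inhibitor of mTOR signalling, rose from 85.5, 89.8 and 80.7 CPM to 143, 163 and 140.0 CPM (log2 fold change 0.79 ± 0.10, adjusted p = 4.72e-05). Of 28 unfolded protein and heat shock genes, 4 were higher (1 without the culture block, Hspb1) and 3 lower. Hspb1, the small heat shock protein HSP27, stood at 244, 269 and 285 CPM at 0 Gy and 354, 494 and 397 CPM at 7 Gy (log2 fold change 0.62 ± 0.09, adjusted p = 0.000157), and Xbp1, a factor of the unfolded protein response, at 165, 129 and 145 CPM at 0 Gy and 85, 72.7 and 84.9 CPM at 7 Gy (log2 fold change -0.86 ± 0.1, adjusted p = 2.65e-05). The chaperone Hspa5 was not called (log2 fold change -0.07 ± 0.07).

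Among 44 NRF2 and glutathione genes 14 were lower and 7 higher, and 7 and 2 without the culture block. The lower count was 6 without culture mTG11 and 5 without mTG14, and the higher count 4 and 4. Glutathione transferases gave the larger falls. Gstm1 stood at 224, 130.0 and 193 CPM at 0 Gy and 62.7, 46.8 and 63.1 CPM at 7 Gy (log2 fold change -1.65 ± 0.10, adjusted p = 5.01e-08), and Gsta1 at 64.1, 60.5 and 77.5 CPM at 0 Gy and 11.6, 35.5 and 29.3 CPM at 7 Gy. The Gstm and Gsta families hold close copies, so that reads may be shared within them. Gclm, the modifier subunit of glutathione synthesis, fell by 0.61 on the log2 scale, Gsto1 rose from 6944, 5822 and 6503 CPM to 8899, 10540.0 and 9495 CPM, and Nfe2l2 (NRF2) and its target Nqo1 were not called (log2 fold changes -0.16 ± 0.08 and -0.27 ± 0.10).

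Respiration and translation moved little in size. Of 72 nuclear respiratory chain genes 3 (4.17%) were higher and 5 (6.94%) lower, near the 5.34% and 6.00% of all genes, with a median of -0.04. Without the culture block the counts were 1 and 3. Uqcrh, a subunit of complex III, stood at 489.5, 492 and 487 CPM at 0 Gy and 374, 363 and 382 CPM at 7 Gy (log2 fold change -0.40 ± 0.07, adjusted p = 0.00204). Of 15 mitochondrially encoded genes 4 were higher, and 2 without the block. CYTB, the cytochrome b of the same complex, stood at 1431, 1207 and 1219 CPM at 0 Gy and 1754, 1842 and 2067 CPM at 7 Gy (log2 fold change 0.55 ± 0.10, adjusted p = 0.00107). Of 76 cytosolic ribosomal protein genes 22 were lower and 0 higher, with a median of only -0.19. That count was 9 without the block, 8 in the 6 libraries alone and 1 without culture mTG14. Rps27 stood at 973, 1068 and 1032 CPM at 0 Gy and 743, 747 and 829.9 CPM at 7 Gy (log2 fold change -0.42 ± 0.08, adjusted p = 0.00208).

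Genes of late squamous differentiation moved in both directions, and more of them fell than rose. Cornified cells are the dead surface layer of stratified epithelia, sealed by loricrin, filaggrin and related proteins. Of 69 measured genes of the cornified envelope and late differentiation, 22 were lower and 8 higher, 39 were not called, the median log2 fold change was -0.37, and 13 were lower without culture mTG11. The summed level of the list was higher at 7 Gy, with 35834 to 42423 CPM at 0 Gy and 47732 to 55292 CPM at 7 Gy. Most of it came from the abundant copies Sprr2a1, Sprr2a2 and Sprr2a3, and without them the sum overlapped between the doses, with 9841 to 12359 and 10002 to 11885 CPM. Flg, filaggrin (chr3:93180830-93200993, plus strand), stood at 28, 5.04 and 15.4 CPM at 0 Gy and 0.501, 1.03 and 0.798 CPM at 7 Gy. At 7 Gy it was at or near 1 CPM in all cultures, 19.1-fold lower (log2 fold change -4.26 ± 0.45, adjusted p = 1.01e-05). Lor, loricrin (chr3:91987578-91990449, minus strand), stood at 122, 40.8 and 92.1 CPM at 0 Gy and 7.77, 17.2 and 20.0 CPM at 7 Gy (log2 fold change -2.46 ± 0.34, adjusted p = 0.000148). Asprv1, the protease that processes filaggrin (chr6:86595254-86606692, plus strand), stood at 80.2, 38.2 and 77.5 CPM at 0 Gy and 6.27, 12.1 and 23.9 CPM at 7 Gy (log2 fold change -2.25 ± 0.27, adjusted p = 4.27e-05). Crnn, cornulin, stood at 143, 25.2 and 96.2 CPM at 0 Gy and 16, 7.71 and 18.4 CPM at 7 Gy, where culture mTG12 was low at 0 Gy already, and its 0 Gy value was still above the highest 7 Gy value (log2 fold change -2.56 ± 0.21, adjusted p = 1.11e-06). Alox12b, a lipoxygenase of the skin barrier, stood at 24, 13 and 36.3 CPM at 0 Gy and 3.26, 6.42 and 7.72 CPM at 7 Gy, and Krtdap, a keratinocyte differentiation gene, at 379, 244 and 408 CPM at 0 Gy and 94, 141 and 151 CPM at 7 Gy. The late cornified envelope gene Lce3e had a log2 fold change of -1.75 ± 0.25 and Lce3b -1.74 ± 0.26, and these are members of a multigene family with similar sequences.

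The envelope genes that rose included the precursor involucrin. Ivl stood at 60.5, 49.6 and 42.7 CPM at 0 Gy and 107, 81.2 and 81.7 CPM at 7 Gy (log2 fold change 0.82 ± 0.10, adjusted p = 6.73e-05), and Cst6, a protease inhibitor of the envelope, at 29.7, 22.9 and 28.2 CPM at 0 Gy and 68.3, 50.1 and 48.8 CPM at 7 Gy (log2 fold change 1.04 ± 0.13, adjusted p = 7.74e-05). Serpinb2, a serpin of keratinocytes, stood at 42.5, 30.8 and 52.5 CPM at 0 Gy and 96.1, 88.4 and 78 CPM at 7 Gy, and Ecm1 at 1269, 1895 and 1604 CPM at 0 Gy and 2448, 2682 and 2424 CPM at 7 Gy. All 4 were apart between the doses, with log2 fold changes of 0.82, 1.04, 1.06 and 0.68. Sprr2a1, Sprr2a2 and Sprr2a3 rose by 0.50, 0.50 and 0.49, but their reads are shared among near-identical copies and count as a single observation. Transglutaminase 1, which crosslinks the envelope, was not called (Tgm1, log2 fold change 0.01 ± 0.12), nor were the suprabasal keratins Krt10 and Krt4 (0.37 ± 0.16 and 0.00 ± 0.26). Of the 22 genes that fell, culture mTG11 had the lowest 7 Gy library in 20, and the 0 Gy library of mTG12 was the highest in 0. The median log2 ratio of the list was -0.86 in mTG11, 0.11 in mTG12 and -0.39 in mTG14.

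**Figure D3:**
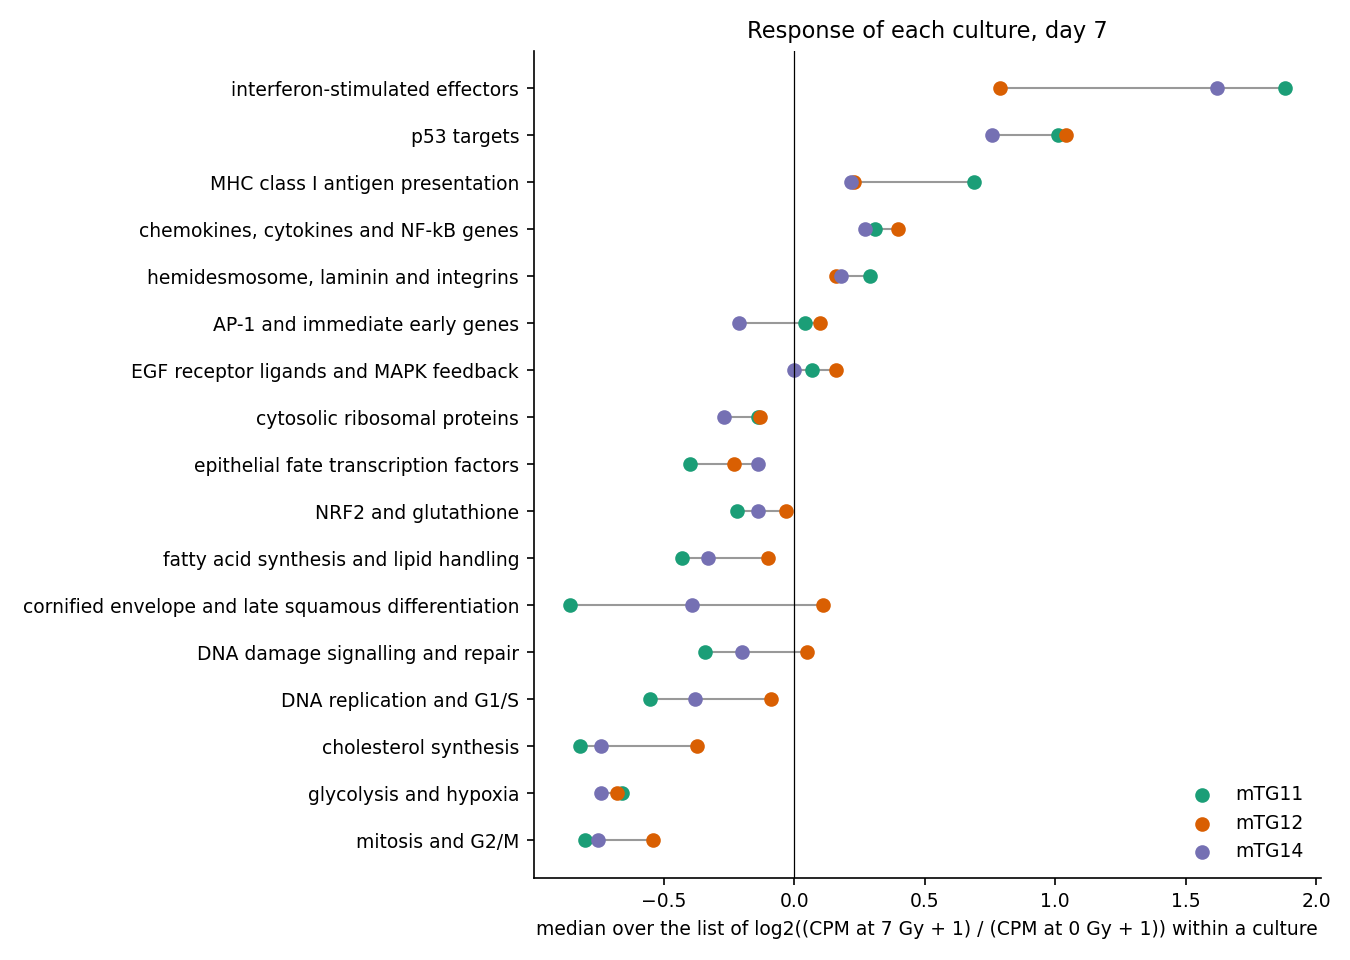
Median log2 ratio of 7 Gy to 0 Gy within each culture (x axis, on the scale of log2(CPM + 1)) for 17 gene lists, with 1 point for each of the cultures mTG11, mTG12 and mTG14. Glycolysis and hypoxia lies between -0.74 and -0.66 in all cultures, whereas interferon-stimulated genes run from 0.79 in mTG12 to 1.88 in mTG11 and the cornified envelope from -0.86 in mTG11 to 0.11 in mTG12.

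Epidermal proteases and their inhibitors also moved in both directions, with a median log2 fold change of -0.11 over the list. Of 38 measured kallikreins, proteases and inhibitors 10 were lower and 7 higher, and 6 and 3 without the culture block. Klk9 stood at 19.9, 12.5 and 23.9 CPM at 0 Gy and 3.26, 5.65 and 5.85 CPM at 7 Gy (log2 fold change -1.94 ± 0.30, adjusted p = 0.000381), and Klk7, a desquamation protease, at 8.6, 5.57 and 8.49 CPM at 0 Gy and 0.877, 2.31 and 0.798 CPM at 7 Gy (log2 fold change -2.44 ± 0.38, adjusted p = 0.000427). Both were lower without overlap, as was the membrane protease Tmprss11a (log2 fold change -1.54 ± 0.20). Plau, the urokinase that cuts plasminogen, rose from 23.5, 29.4 and 27.5 CPM to 65.9, 78.4 and 48.7 CPM (log2 fold change 1.24 ± 0.13, adjusted p = 1.18e-05). Mmp13, a collagenase, rose by 1.16 ± 0.20.

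The main basal keratins did not pass the test, and some genes of the basal adhesion machinery rose. Krt5 and Krt14, the keratins of basal cells, were not called (log2 fold changes 0.14 ± 0.08 and 0.27 ± 0.10). Krt17, a keratin of stressed and wounded epithelium, stood at 805, 806 and 802 CPM at 0 Gy and 1700.0, 1787 and 1385 CPM at 7 Gy, where the 0 Gy libraries were almost equal and the 7 Gy libraries all higher (log2 fold change 0.99 ± 0.14, adjusted p = 0.000139). Of 23 hemidesmosome, laminin and integrin genes 8 were higher and 0 lower, but 2 without the culture block and 3 without culture mTG11. Lamb1, a laminin chain called also without the block, stood at 26.8, 35 and 32.9 CPM at 0 Gy and 49.4, 61.4 and 45.5 CPM at 7 Gy (log2 fold change 0.71 ± 0.14, adjusted p = 0.00276). Cldn1, a tight junction protein, rose from 11.2, 25.7 and 20.1 CPM to 37.1, 44.2 and 37 CPM (log2 fold change 1.07 ± 0.16, adjusted p = 0.000327). Of 15 measured desmosome genes 3 were lower and 0 higher.

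Transcription factors of epithelial fate were lower in part. Of 45 such genes 16 were lower and 1 higher, and 8 were lower without the culture block or without culture mTG11. Trp63, the master factor of stratified epithelia, stood at 130.0, 138 and 123 CPM at 0 Gy and 80.7, 82.7 and 87.9 CPM at 7 Gy (log2 fold change -0.65 ± 0.09, adjusted p = 0.000207). Id1 and Id2, inhibitors of differentiation factors, stood at 99.5, 161 and 102 CPM at 0 Gy and 38.9, 68.1 and 59.9 CPM at 7 Gy and at 159.8, 179 and 195 CPM at 0 Gy and 90.6, 96.8 and 107 CPM at 7 Gy. No library overlapped, with log2 fold changes of -1.14 ± 0.11 and -0.87 ± 0.10. Ehf, an epithelial ETS factor, Barx2, a homeobox factor, and Sox15 fell as well (log2 fold changes -0.71 ± 0.12, -0.60 ± 0.12 and -0.69 ± 0.12). Sox4, a factor of progenitors, was the member that rose, with 332, 399.7 and 363 CPM at 0 Gy and 609, 596 and 533 CPM at 7 Gy (log2 fold change 0.66 ± 0.09, adjusted p = 0.000102). Sox2, Klf4 and Grhl3 were not called (log2 fold changes -0.16 ± 0.10, -0.13 ± 0.09 and -0.24 ± 0.18).

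In the signalling pathways, single ligands, receptors and targets moved. Jag1, a Notch ligand, stood at 150.3, 219 and 146 CPM at 0 Gy and 343, 373 and 305 CPM at 7 Gy (log2 fold change 1.00 ± 0.10, adjusted p = 6.09e-06), while the Notch target Hey1 fell from 15.6, 10.3 and 14.2 CPM to 4.51, 2.06 and 5.32 CPM (log2 fold change -1.76 ± 0.23, adjusted p = 9.22e-05), and Notch1 and Hes1 were not called (log2 fold changes 0.29 ± 0.09 and 0.03 ± 0.10). Over 19 measured Notch genes 1 was higher and 3 lower. The ligand Wnt7b rose by 0.75 ± 0.11, within a Wnt list of 27 measured genes of which 3 (11.1%) were higher and 2 (7.41%) lower. Inhba, the activin A subunit, stood at 104, 214 and 121 CPM at 0 Gy and 402, 364 and 313 CPM at 7 Gy (log2 fold change 1.32 ± 0.16, adjusted p = 3.92e-05), and the TGF-β receptor Tgfbr2 at 51.6, 47.2 and 40.7 CPM at 0 Gy and 87.7, 94 and 64.4 CPM at 7 Gy (log2 fold change 0.80 ± 0.10, adjusted p = 8.76e-05). Of 32 TGF-β and EMT genes 8 were higher and 2 lower, and 3 were higher without the culture block. Tgfb1, Snai2 and Vim were not called (log2 fold changes -0.24 ± 0.12, 0.14 ± 0.14 and 0.30 ± 0.27). Areg, an EGF receptor ligand, stood at 82.6, 103 and 91.9 CPM at 0 Gy and 182, 178 and 199.7 CPM at 7 Gy (log2 fold change 1.01 ± 0.09, adjusted p = 2.51e-06), and Ereg, another, at 19, 19.6 and 20.6 CPM at 0 Gy and 29.1, 46.5 and 30.9 CPM at 7 Gy (log2 fold change 0.82 ± 0.14, adjusted p = 0.00092). The receptor Fgfr3 stood at 31.4, 26.1 and 31.4 CPM at 0 Gy and 7.27, 8.35 and 6.92 CPM at 7 Gy, a 3.98-fold fall, and Fgfr2 at 37.5, 33.4 and 30.1 CPM at 0 Gy and 12.8, 17 and 15.7 CPM at 7 Gy. In the EGF receptor and MAPK list 9 of 31 measured genes were higher and 5 lower, the 9 being 4 without the culture block, and Egfr, Dusp6 and Spry2 were not called (log2 fold changes 0.11 ± 0.12, 0.07 ± 0.10 and -0.20 ± 0.14).

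Several immediate early genes fell steeply. Fos, the AP-1 subunit induced by growth factors and stress (chr12:85520658-85524047, plus strand), stood at 183, 216 and 211 CPM at 0 Gy and 40.4, 29.6 and 38.6 CPM at 7 Gy, a 5.65-fold fall in which the 7 Gy libraries lay far below every 0 Gy library (log2 fold change -2.50 ± 0.14, adjusted p = 2.22e-08). Fosb stood at 25.3, 21.7 and 24.7 CPM at 0 Gy and 4.76, 6.17 and 4.79 CPM at 7 Gy (log2 fold change -2.20 ± 0.21, adjusted p = 4.95e-06), and Egr1 at 293, 194 and 224 CPM at 0 Gy and 115, 82 and 129.6 CPM at 7 Gy (log2 fold change -1.13 ± 0.13, adjusted p = 2.27e-05). The phosphatase Dusp1 and the early gene Ier2 fell less (log2 fold changes -1.08 ± 0.18 and -0.71 ± 0.12). The partners Jun and Junb overlapped between doses and were not called (log2 fold changes -0.14 ± 0.13 and 0.01 ± 0.09). Fosl1, the FOS family member FRA1, rose from 5.99, 4.51 and 5.92 CPM to 11, 15.9 and 10.1 CPM (log2 fold change 1.16 ± 0.24, adjusted p = 0.00387), and Klf6, an early response zinc finger factor, rose by 0.39 ± 0.08 on the log2 scale. Over the 33 genes of the list 6 were lower and 6 higher, and 1 was higher without culture mTG11.

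Genes of stem, mucosal and thyroid character moved individually. Of 19 measured stem and progenitor genes 6 were higher and 2 lower. Ly6a (Sca-1) stood at 665, 568 and 600.4 CPM at 0 Gy and 1042, 969.7 and 776 CPM at 7 Gy (log2 fold change 0.59 ± 0.09, adjusted p = 0.000256), and Cd44, the hyaluronan receptor, at 354, 441 and 367 CPM at 0 Gy and 545, 661 and 541 CPM at 7 Gy (log2 fold change 0.58 ± 0.08, adjusted p = 2e-04), both without overlap, whereas Prom1 (CD133) fell from 47.4, 35.8 and 37 CPM to 20.8, 18.5 and 18.9 CPM (log2 fold change -1.05 ± 0.19, adjusted p = 0.00177). Of 33 measured mucosal defence genes 6 were higher and 8 lower, and 1 and 3 without the culture block. Defb1, a constitutive defensin, stood at 40.1, 45.9 and 43.5 CPM at 0 Gy and 16.8, 22.1 and 19.4 CPM at 7 Gy (log2 fold change -1.16 ± 0.14, adjusted p = 2.87e-05), and Aldh1a3, which makes retinoic acid, at 219, 347 and 257 CPM at 0 Gy and 481, 530.3 and 494 CPM at 7 Gy (log2 fold change 0.88 ± 0.10, adjusted p = 1.29e-05). Of 13 measured thyroid genes 1 was higher, Ano1, a chloride channel of many epithelia, with 32.6, 46.4 and 38.1 CPM at 0 Gy and 66.7, 79.7 and 62.3 CPM at 7 Gy (log2 fold change 0.83 ± 0.11, adjusted p = 0.000101). None of 21 measured genes of multiciliated cells was called, and their summed level was between 101 and 103 CPM at 0 Gy and between 98.3 and 155 CPM at 7 Gy.

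Markers of other cell types of the gland and its surroundings were present at different levels. Of 21 measured fibroblast and matrix genes 3 were higher, Acta2, Dcn and Gsn, and 0 without the culture block. Dcn stood at 2.74, 9.81 and 26.8 CPM at 0 Gy and 9.02, 13.9 and 37.5 CPM at 7 Gy, with overlapping doses, and the summed level of the list was between 377 and 567 CPM at 0 Gy and between 560 and 663 CPM at 7 Gy. The collagen gene Col1a1 was not called (log2 fold change 0.49 ± 0.27). Of 7 measured adipocyte and muscle genes 2 were higher, Acta1 (log2 fold change 0.68 ± 0.13) and Tnnt3 (0.99 ± 0.18), which encode muscle actin and troponin, and 1 was lower, the adipocyte gene Fabp4 (-1.25 ± 0.28). These 3 calls were lost without the culture block. The endothelial gene Cdh5 had 0 counts in all 6 libraries, and 0 of 6 measured endothelial genes were called. Calcb, the β form of calcitonin gene-related peptide, listed with the thyroid C cells, stood at 22.4, 38.4 and 18.3 CPM at 0 Gy and 86.7, 87.6 and 76.6 CPM at 7 Gy (log2 fold change 1.68 ± 0.15, adjusted p = 2.68e-06), while Calca, the calcitonin gene that defines C cells, was at most about 1 CPM and not called (adjusted p = 0.0717), and Chgb had 1 count at 0 Gy and 0 at 7 Gy. The part of fibroblast, muscle and fat RNA in the results above was not tested.

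Among the 30 largest called changes at a mean of 10 CPM or more, 15 in each direction and without overlap, most belong to the lists above, and those outside them were these. Mcam, the adhesion molecule CD146 (chr9:44045504-44054025, plus strand), stood at 4.69, 5.83 and 8.49 CPM at 0 Gy and 56, 68.3 and 49.2 CPM at 7 Gy, a 9.01-fold rise (log2 fold change 3.17 ± 0.18, adjusted p = 2.56e-08). 9530053A07Rik rose 9.93-fold, from 1.82, 2.52 and 2.44 CPM to 25.2, 27.1 and 19.2 CPM. Rtp4, an interferon-induced chaperone of receptors, rose 8.06-fold. 2610528A11Rik, the mouse gene of the GPR15 ligand, stood at 295, 235 and 337 CPM at 0 Gy and 54.1, 52.9 and 91.3 CPM at 7 Gy, a 4.47-fold fall (log2 fold change -2.16 ± 0.11, adjusted p = 1.27e-08). Ndufa4l2, a mitochondrial protein known as a HIF target, stood at 432, 552 and 513 CPM at 0 Gy and 123, 137 and 146 CPM at 7 Gy (log2 fold change -1.89 ± 0.09, adjusted p = 4.54e-09). The factors Tfcp2l1 and Hlf and the cytochrome P450 Cyp2s1 fell (log2 fold changes -1.90 ± 0.19, -1.79 ± 0.19 and -1.80 ± 0.22), and all 3 were apart between the doses. The calls of all 30 genes held under every alternative tried.

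The 7 Gy libraries were also set against the other doses of day 7, to see which responses still grew between 2 and 7 Gy. These comparisons share the 7 Gy libraries with the comparison above and are given side by side. Against 2 Gy, 609 genes (3.15%) differed, 313 higher (1.62%) and 296 lower (1.53%), and 160 without the culture block. Against 4 Gy 44 genes (0.227%) differed. Without the block that count was 0, with 1346 genes at an unadjusted p under 0.05 by the same edgeR test, and DESeq2 called 51. Of 74 measured ISGs 44 were higher than at 2 Gy, with a median log2 difference of 1.43, and 10 higher than at 4 Gy, with a median of 0.81. Of the 40 p53 targets 14 were higher than at 2 Gy (median 0.48) and 1, Mdm2, higher than at 4 Gy (0.12). Mitosis genes were lower than at 2 Gy in 37 of 65 (median -0.75) and lower than at 4 Gy in 4 (-0.51). Glycolysis and hypoxia genes were lower than at 2 Gy in 22 of 38 (-0.45) and than at 4 Gy in 3 (-0.26), and cholesterol genes in 9 of 25 (-0.35) and in 0 (-0.22).

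The mean levels over the 4 doses followed different courses. Isg15 stood at 12.7 ± 5.24, 32.1 ± 20.6, 63.5 ± 36.5 and 149.7 ± 128 CPM at 0, 2, 4 and 7 Gy (mean ± SD, n = 3), so that most of the rise of the mean fell between 4 and 7 Gy, where the SD was close to the mean. Cdkn1a stood at 243 ± 18.4, 409.6 ± 34.2, 519.9 ± 81.8 and 597 ± 83.9 CPM, with most of the rise below 4 Gy. Mki67 stood at 120.4 ± 8.49, 108 ± 27.7, 84.1 ± 9.65 and 43.8 ± 4.24 CPM, where 2 Gy lay close to 0 Gy. Egln3 fell at every step, with 302 ± 52.9, 213 ± 64.2, 131 ± 11.7 and 78.3 ± 15.7 CPM, as did Fos, with 204 ± 17.5, 107 ± 11, 63.7 ± 10.3 and 36.2 ± 5.79 CPM. Over the lists, the 4 means rose in strict order of dose in 56 of 74 ISGs (75.7%) and 22 of 40 p53 targets (55.0%), against 10.5% of all genes. They fell in strict order in 20 of 25 cholesterol genes (80.0%), 30 of 38 glycolysis and hypoxia genes (78.9%), 28 of 65 mitosis genes (43.1%) and 26 of 69 envelope genes (37.7%), against 9.8% of all genes.

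**Figure D4:**
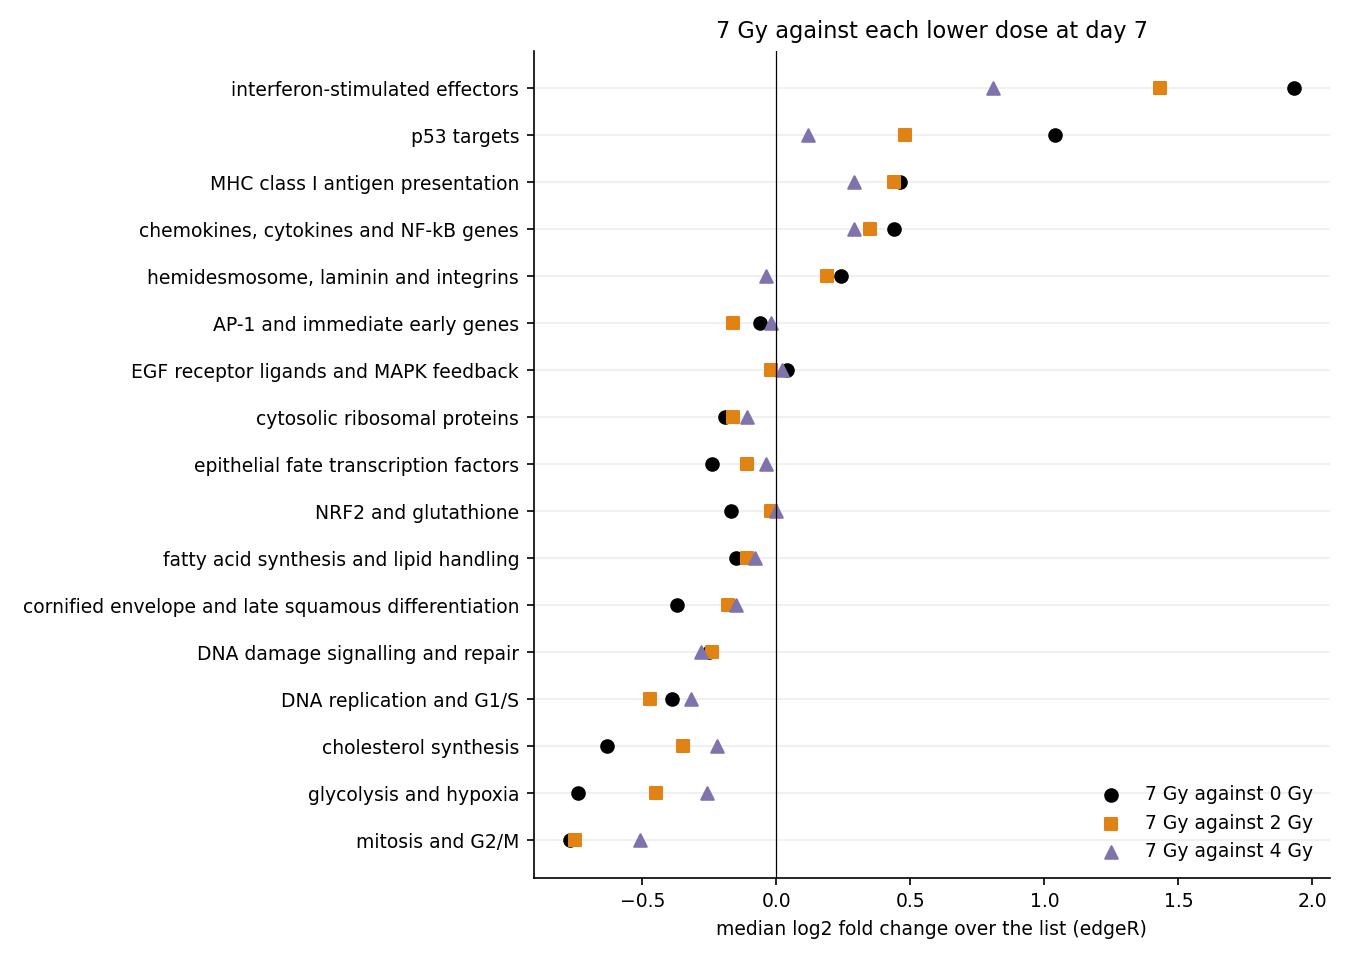
Median log2 difference of the 7 Gy libraries from 0, 2 and 4 Gy at day 7 (x axis) for 17 gene lists, with 1 point per list and comparison, all of which share the 7 Gy libraries. The distance from 2 Gy was almost as large as that from 0 Gy for mitosis (-0.75 and -0.77) and much smaller for p53 targets (0.48 and 1.04).

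At day 11, 6 days after exposure, the 7 Gy response had another profile, and the difference of the log2 fold changes was tested as an interaction over 24 libraries of both days. The response differed in 1156 of 21928 genes (5.27%), higher at day 11 in 793 (3.62%) and lower in 363 (1.66%), and in 663 without the culture block. The genes followed below were picked by their day 7 change, which also enters this difference. Selection thus favours a difference of the opposite sign, and counts over whole lists are given as well. All 46 mitosis genes that fell at day 7 had a fold change above 0 at day 11, from 0.22 to 1.81, and in 46 of 46 the difference passed the test, while 38 passed the test of day 11 alone. Their 0 Gy means were lower at day 11 than at day 7 in 46 of 46, and the 7 Gy means were higher in 32. Over all 65 listed mitosis genes the difference was higher in 57 and lower in 1. Top2a stood at means of 184 and 95 CPM at 0 and 7 Gy at day 7 and 57.5 and 109 CPM at day 11, and changed by -0.95 at day 7 and 0.92 at day 11 (interaction 1.87, adjusted p = 2.85e-07). The p53 targets moved the opposite way, as 21 of the 24 that rose at day 7 had a smaller response at day 11, with fold changes from -0.4 to 0.68. Over all 40 p53 targets the difference was lower in 22 and higher in 2. Mdm2 changed by 1.72 and 0.35 (interaction -1.37, adjusted p = 3.32e-05).

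The ISGs held their response for the most part. All 57 that rose at day 7 had a fold change above 0 at day 11, from 0.05 to 4.77, and the difference passed the test as lower in 10 and higher in 1. Over all 74 measured ISGs it was lower in 10 and higher in 4. A smaller fold need not mean a lower level at 7 Gy. The mean of Ifi44, 1 of the 10, went from 4.69 CPM at day 7 to 51.5 CPM at day 11 at 0 Gy, and from 63.4 to 162 CPM at 7 Gy. B2m rose further at day 11, with 1.27 at day 7 and 2.25 at day 11 (interaction 1.00, adjusted p = 0.00372), as did H2-K1 with 0.52 and 1.67 (1.15, adjusted p = 0.00392). Of the 29 glycolysis and hypoxia genes that fell, 26 differed towards higher at day 11, where their fold changes ran from -0.92 to 0.7, and Vegfa was not among them, with -0.77 and -0.92 (adjusted p = 0.814). Of the 22 cholesterol genes 20 differed, with fold changes from 0.0 to 1.2 at day 11. Over the whole lists the difference was higher in 28 of 38 glycolysis and hypoxia genes and 21 of 25 cholesterol genes, and lower in 0 of both. In the 69 measured envelope genes it was higher in 29 and lower in 1. Of the 22 envelope genes that fell at day 7, 19 differed towards higher and 19 had a fold change above 0 at day 11, with values from -0.38 to 4.44, of which 10 passed the test at day 11. Many of these folds rest on low levels. All 22 had a lower 0 Gy mean at day 11 than at day 7, in 11 at or below 0.825 CPM, the highest level that 3 counts make in these day 11 libraries, and 17 had a lower 7 Gy mean as well. Asprv1 stood at means of 65.3 and 14.1 CPM at 0 and 7 Gy at day 7 and at 0.719 ± 0.806 and 8.71 ± 4.46 CPM (SD, n = 3) at day 11. It changed by -2.25 at day 7 and 3.66 at day 11 (interaction 5.93, adjusted p = 1.08e-05), which is a fold over a control at the limit of detection and not a rise of the 7 Gy level. Crnn and Flg, which had fallen at day 7, had day 11 fold changes of -0.21 and -0.16 (interactions 2.34 and 4.08, adjusted p = 0.000113 and 0.0042). Fos was lower on both days, by -2.50 and -1.32 (interaction 1.18, adjusted p = 0.00572), and the difference of Egr1 did not pass the test (adjusted p = 0.846).

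**Figure D5:**
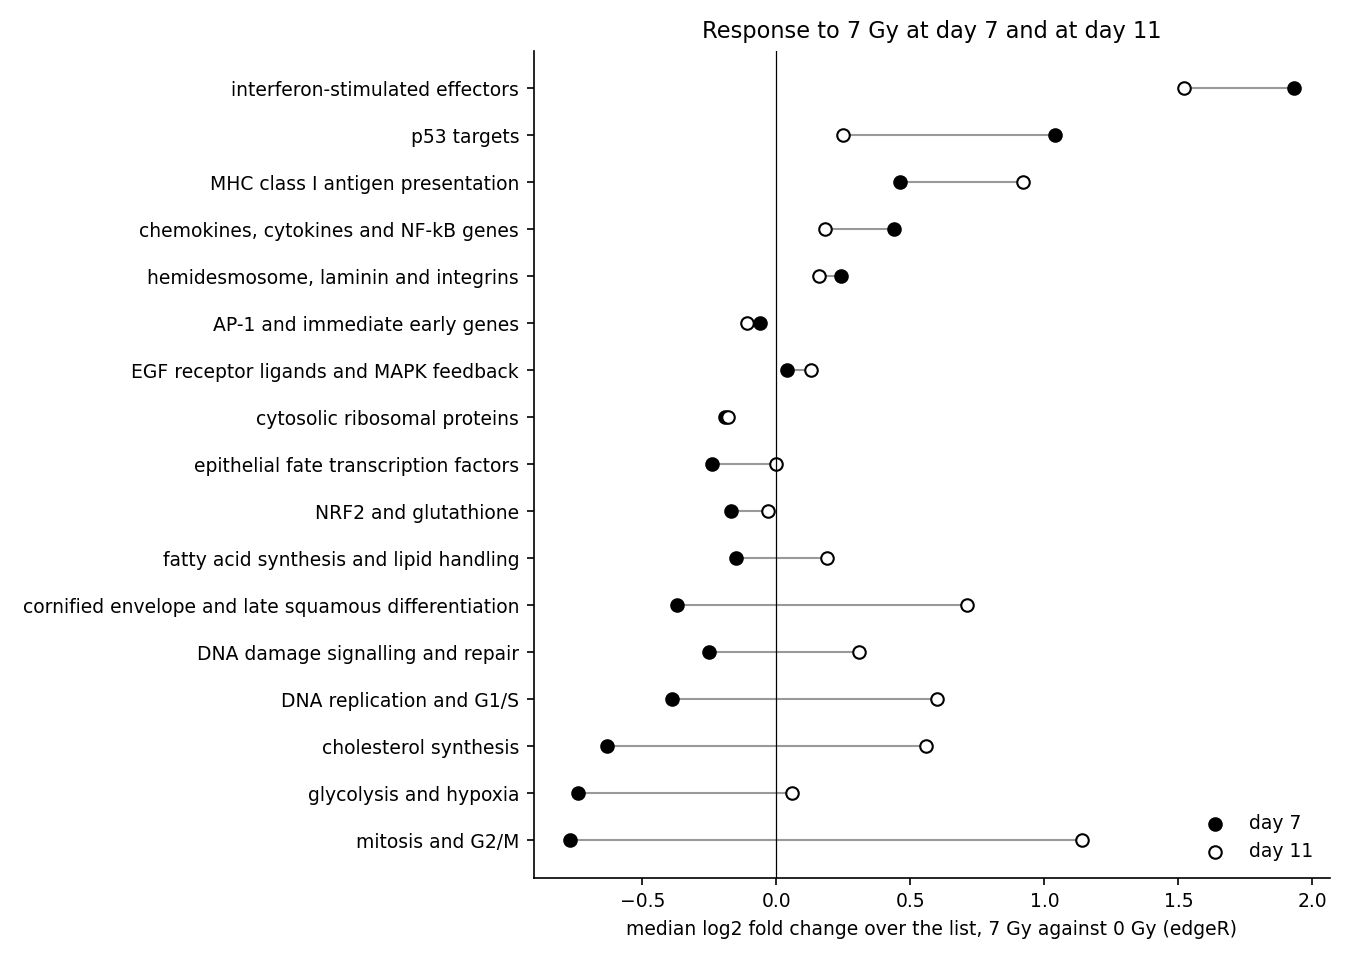
Median log2 fold change at 7 Gy against 0 Gy at day 7 and at day 11 (x axis) for 17 gene lists, with 1 point per day. Mitosis moved from -0.77 to 1.14 and cholesterol synthesis from -0.63 to 0.56, p53 targets from 1.04 to 0.25, and interferon-stimulated genes from 1.93 to 1.52.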

How the data were processed

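Organoids were sequenced with Smart3SEQ, which reads the 3′ ends of polyA RNA, as single reads. Per the labels, reads were aligned to GRCm39 with STAR. The deposited table gives estimated counts by gene symbol for 50559 genes and 27 libraries, and 56.7% of the values above 0 in the 6 libraries used here are whole numbers, as the authors deposited them. The counter, the annotation, the strand setting and the treatment of molecular identifiers are not given in the sources used here. Depth was between 3758142 and 3989606 counts per library, and limits from counts cover counting error only.

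The estimated counts were rounded and fitted with edgeR 4.0.16 (R 4.3.3) by the quasi-likelihood test over the 12 libraries of day 7, with TMM factors (0.96 to 1.019 in the 6 libraries), genes of at least 10 counts summed, the culture as a block and Benjamini-Hochberg adjustment at 0.05. Culture names are in the column names. Samples of the same culture deviated together, with correlations of 0.189 to 0.258 in 3 pairs and of -0.222 to 0.0275 in 6 pairs of different cultures. The difference between days was an interaction over 24 libraries. DESeq2 1.42.0, a fit without the block, other filters, no TMM factors, thinning and leaving out each library or culture were the alternatives. The scripts were tested on simulated data. Summaries and figures used Python 3.11.15, pandas 2.3.3 and matplotlib 3.10.9.

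Members, the 42 gene lists and the tests were chosen with earlier results of these data known. Genes were named as list members, led by called members at a mean of 5 CPM or more and by those that define a role, or as the 15 largest rises and 15 largest falls that were called, at a mean of 10 CPM or more and without overlap. Cell types and lists are described by counts and medians, with no test over a list. Promoter windows are RefSeq's for GRCm38.p6, matched by symbol for 12308 of 19346 genes, and gene spans are those of GRCm39. Some members of the lists are counted but not reported by name here.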

Additional observations from a re-analysis of the deposited data

Results flagged for a closer look

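For 1156 genes the effect of 7 Gy was not the same at the 2 ages, by the interaction term of the edgeR fit, and the values below are the day 11 effect minus the day 7 effect on the log2 scale for genes among the largest changes of day 7. As these genes were picked by their day 7 effect, which also enters the difference, a difference of the opposite sign is favoured. The difference was negative for the interferon-stimulated genes Ifi44 (-1.92), Ifit3b (-1.48), Lgals3bp (-1.51), Ifit1 (-1.34) and Xaf1 (-1.52), for the p53 target Eda2r (-2.31), and for 9530053A07Rik (-2.56) and Mcam (-2.52), all of which rose at day 7. In each of these interferon-stimulated genes the means of both doses were higher at day 11 than at day 7. For Ifit1 they went from 14.5 to 88.3 CPM at 0 Gy and from 115 to 230 CPM at 7 Gy. The 7 Gy means of Eda2r, 9530053A07Rik and Mcam were lower at day 11. Genes of late squamous differentiation that fell at day 7 had positive differences, with Crnn at 2.34, Lor at 5.0, Asprv1 at 5.93, Alox12b at 4.1, Rptn at 5.63 and Klk9 at 2.94. Apart from Crnn, these had 0 Gy means of 0.36 to 1.58 CPM at day 11, near what 3 counts make there (0.524 to 0.825 CPM), and 7 Gy means below those of day 7, so that the sizes are uncertain, and the day 11 fold did not pass the test for Lor (adjusted p = 0.153), Alox12b (0.193) or Klk9 (0.38). Positive values also belonged to Egln3 (2.08) and Ndufa4l2 (2.81), to the immediate early gene Fos (1.18), to the receptor Fgfr3 (1.94), and to 2610528A11Rik (2.13), Tfcp2l1 (1.34), Cyp2s1 (1.45) and Hlf (1.57). The day 11 organoids were 6 days from exposure and older than those of day 7, and time after exposure and age of the culture cannot be told apart.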

How the results depend on the processing

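With the culture as a replicate block 2193 genes were called between 7 and 0 Gy, and without the replicate block 1345, of which 620 were higher and 725 lower. The same setting gave 160 genes against 2 Gy, 0 against 4 Gy (1346 at an unadjusted p under 0.05, and 51 by DESeq2) and 663 for the difference between days, and the share of higher genes against 2 Gy was 33.1% without and 51.4% with the block. DESeq2 called 1424 genes between 7 and 0 Gy, 660 higher and 764 lower. Leaving out a library or a culture gave 910 to 1729 genes, 441 to 829 higher and 469 to 900 lower, and 271 to 444 called list members against 480 in the main setting. The lowest values came without culture mTG11, and without culture mTG14 the count was 1187, without the 7 Gy library of mTG11 1322 and without its 0 Gy library 1459. The causes were not tested. Counts in the 6 libraries alone (1712), without TMM factors (2099), with looser (2755) or stricter (2424) filters and after thinning (1912) stayed within 1.5 times of the main count. No value tried under these settings changed sign among the named genes that were called. Of 488 such genes, 224 were tested and called under all 16 alternatives and 2 under all that tested them, 158 were not called without the block, 67 not with DESeq2 and 250 not in at least 1 fit that left out a library or culture. Depth limits genes under about 1 CPM, as the interferon ligands.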
